A study of Mus musculus with 31 samples.

Results

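The 8 genes described here encode the scaffold of the axon initial segment and of the node of Ranvier: Sptbn4, Ank3, Cntnap1, Cntnap2, Cntn1, Cntn2, Nfasc and Epb41l3. They were taken by symbol from the array annotation, as every probe set annotated to 1 of these symbols alone. This gave 24 probe sets of 45101 on the array, and 8 genes of 18193 with a symbol. Of the 24, 23 were bright enough to be tested, and the Ank3 probe set 1457288_at was not.

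The study profiled CD4 T cells of mice on 31 Affymetrix arrays in 10 groups, to set natural regulatory T cells (Treg) beside those induced in culture. Cells came from the spleen and lymph nodes. All mice carried an EGFP reporter at Foxp3, the gene of the factor that defines Treg, either in the bicistronic Foxp3/EGFP form or as the mutant Foxp3deltaEGFP allele. From Foxp3/EGFP mice came the arrays labelled natural Treg (EGFP+, not activated, 4 arrays), conventional T (EGFP-, not activated, 3), activated T (EGFP- cells given anti-CD3 and anti-CD28 antibodies and no TGF-beta, 4) and activated natural Treg (EGFP+ cells given both antibodies and TGF-beta, 3). The same mice gave induced Treg, which were EGFP- cells given both antibodies and TGF-beta for 3 days and sorted as EGFP+ (5), and failed induced Treg, the cells of those cultures that remained EGFP- (3). The mutant allele was carried by the arrays labelled natural Foxp3-delta (EGFP+, not activated, from heterozygous females, 2) and induced Foxp3-delta (induced as above from EGFP- cells of mutant mice, 3). The last groups held such induced cells of either allele after a further culture of 1 week with interleukin 2 (IL-2) at 100 units per ml (IL-2 induced Treg and IL-2 induced Foxp3-delta, 2 arrays each). The labels do not say whether arrays of a group came from separate animals or cultures, so each p-value here reflects the spread between arrays alone, which may be technical. Ages, strain backgrounds and, for the Foxp3/EGFP mice, sex are not given in the labels used here.

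The values did not look like those of T cells. Over the 31 arrays, 13 of 15 T cell markers lay below the 50th percentile of their array, and the list's median percentile was 28.0. The Foxp3 probe set read 12.7 ± 2.35 (SD, n = 31) in deposited intensity, with a range of 7.62 to 17.0 over all labels, beside a median of 8.54 for the bacterial control probe sets. Cd3e, part of the CD3 complex that signals for the T cell receptor, read 36.8 ± 12.2, and Cd4 read 19.8 ± 3.84 (SD, n = 31). Neuron, oligodendrocyte and astrocyte markers had median percentiles of 98.8, 98.7 and 99.02, and those of Schwann cells, which myelinate peripheral axons, 60.3. The array with the lowest correlation to another still correlated at 0.98 over all probe sets. Whether these values belong to the labelled samples cannot be settled from the files. Groups are therefore named below as arrays labelled natural Treg and so on, each comparison is one between labels, and no statement on T cells, genotype or treatment follows from it. RNA from a whole sample was measured, so fewer cells of a type and less RNA per cell cannot be told apart.

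At the axon initial segment, where action potentials start, and at the gaps in myelin called nodes of Ranvier, ankyrin-G and beta-IV spectrin hold voltage-gated sodium channels and cell adhesion molecules in the membrane. On either side of the node, paranodal junctions of contactin and Caspr on the axon bind a neurofascin form on the myelinating glia. Next to them lies the juxtaparanode, where Caspr2 and TAG-1 hold potassium channels. Ank3 encodes ankyrin-G, Sptbn4 encodes beta-IV spectrin, Nfasc encodes neurofascin in its neuronal and glial forms, Cntn1 and Cntnap1 encode contactin and Caspr, Cntn2 and Cntnap2 encode TAG-1 and Caspr2, and Epb41l3 encodes protein 4.1B, which ties Caspr and Caspr2 to the actin and spectrin network.

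Sptbn4 and Nfasc were the members with a called difference, so the start regions annotated for them are shown, as RefSeq gives them on the mouse build GRCm38.p6, 5′ to 3′ on the gene's minus strand. Both genes have several annotated starts, and the first and the last in the table's order are printed for each. Capitals mark the GC box motif GGGCGG, searched on both strands, so also as CCGCCC.
Sptbn4 first start (chr7:27446590-27446839): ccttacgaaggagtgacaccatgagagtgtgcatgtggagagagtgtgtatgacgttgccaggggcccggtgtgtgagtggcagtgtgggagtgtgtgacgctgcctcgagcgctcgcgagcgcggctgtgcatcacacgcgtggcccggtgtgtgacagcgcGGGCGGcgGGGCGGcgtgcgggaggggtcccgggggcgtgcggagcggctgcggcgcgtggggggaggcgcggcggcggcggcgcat
Sptbn4 last start (chr7:27394507-27394756): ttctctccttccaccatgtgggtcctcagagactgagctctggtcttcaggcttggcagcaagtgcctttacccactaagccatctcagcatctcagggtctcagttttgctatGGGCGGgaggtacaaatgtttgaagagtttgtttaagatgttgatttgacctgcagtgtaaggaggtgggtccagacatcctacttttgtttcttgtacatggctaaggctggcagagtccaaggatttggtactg
Nfasc first start (chr1:132707327-132707576): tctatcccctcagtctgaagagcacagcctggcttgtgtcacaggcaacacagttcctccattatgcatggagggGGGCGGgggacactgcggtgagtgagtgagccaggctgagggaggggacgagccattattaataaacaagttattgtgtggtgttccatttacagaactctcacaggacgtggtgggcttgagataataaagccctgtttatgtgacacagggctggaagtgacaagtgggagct
Nfasc last start (chr1:132642859-132643108): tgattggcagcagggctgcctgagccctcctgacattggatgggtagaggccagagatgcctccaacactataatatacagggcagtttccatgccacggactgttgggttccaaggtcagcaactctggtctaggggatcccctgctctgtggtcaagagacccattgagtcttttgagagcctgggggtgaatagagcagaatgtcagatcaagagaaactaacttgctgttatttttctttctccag
The first Sptbn4 window held 33 CpG dinucleotides and 2 GC boxes, and its last held 1 CpG and 1 GC box. The first Nfasc window held 4 CpG and 1 GC box, and its last 1 CpG and 0 boxes. Over all 32851 windows of this length in the table the median was 6 CpG, and 32.7% held the motif. Windows were listed for 6 of the 8 members, and 7 of their 15 windows (46.7%) held it. All 4 Sptbn4 windows were among them, so this share leans on 1 gene. A match is a description of these letters, and whether a window is used in these samples was not measured.

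Sptbn4 was the member whose level moved most between groups. Its 1 probe set, 1425116_a_at, is given here in quantile-normalised intensity, in which all arrays share 1 distribution. The 4 arrays labelled natural Treg read 949, 689, 867 and 769. The arrays labelled conventional T read 577, 387 and 596, those labelled activated natural Treg 447, 589 and 437, and those labelled natural Foxp3-delta 395 and 363. All 4 natural Treg arrays lay above the other 27, which ranged from 317 to 596 with a median of 432.

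The arrays labelled failed induced Treg read 538, 502 and 405, and those labelled induced Treg read 400, 325, 403, 522 and 424. The arrays labelled activated T read 445, 379, 378 and 483, and those labelled induced Foxp3-delta 451, 432 and 456. The arrays labelled IL-2 induced Treg read 377 and 317, and those labelled IL-2 induced Foxp3-delta 361 and 506. These groups ran into each other: in the order of group means, from natural Treg at 819 ± 113 (SD, n = 4) and conventional T at 520 ± 116 (n = 3) down to IL-2 induced Treg at 347 ± 42.5 (n = 2), the first 2 were the only neighbours whose arrays did not overlap. In percentiles within the array, the natural Treg arrays lay at 89.9 or above and the others at 88.5 or below. Quantile-normalised values follow these same ranks, so the percentiles are no separate check. In the deposited intensities 1 of the other 27 arrays, an induced Treg array at 792, lay above the lowest natural Treg array at 685.

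**Figure D1:**
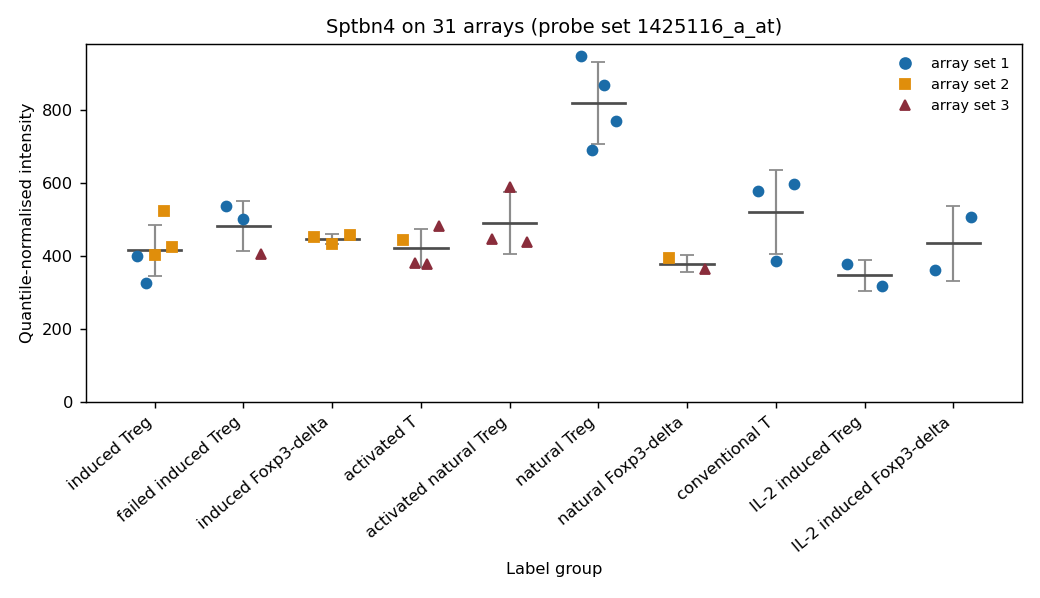
Quantile-normalised intensity of the Sptbn4 probe set on each of the 31 arrays (points), by label group, with the group mean (line) and SD (bar); symbols mark the 3 array sets. The 4 natural Treg arrays, at 689 to 949, sit above the other 27, which reach 596.

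Each probe set was tested with limma for a difference anywhere among the 10 label groups, on log2(normalised intensity + 16), a scale that understates the change of dim probe sets. Sptbn4 was called (adjusted p = 0.00125), and it was 1 of 23 member probe sets, against a background of 12.4% of all 24669 probe sets tested. The other 22 had adjusted p from 0.179 to 0.987. Label groups took 76.9% of the variance of Sptbn4 over the arrays, against a median of 40.5% over all probe sets tested. Its group means spanned 1.196 on the log2 scale, and those of the other 22 member probe sets spanned 0.15 to 0.57, with a median of 0.35.

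Between the arrays labelled natural Treg and natural Foxp3-delta, which by their labels differ in the Foxp3 allele and not in activation, Sptbn4 was higher in natural Treg by 1.07 (log2, SE 0.18, 95% interval 0.71 to 1.43), or 2.10-fold on that scale (adjusted p = 0.0192, limma). It was the 1 member probe set called of 23, against 0.0892% of all. Members with no overlap between the groups numbered 3 of 23, against 29.9% of all. The 12 neuron markers summed to 63346 to 64884 in normalised intensity on the natural Treg arrays and to 61085 to 61561 on the natural Foxp3-delta arrays, with no overlap. The sums of the T cell, oligodendrocyte, Schwann cell, astrocyte, microglia and endothelium markers all overlapped between these groups. The 3′ to 5′ ratio of the Gapdh probe sets was 1.015 to 1.031 on the natural Treg arrays and 0.928 and 1.014 on the others. The same ratio for actin was 1.73 to 1.84 on the natural Treg arrays. On natural Foxp3-delta arrays 1 and 2 it was 1.71 and 2.19, the latter the highest of all 31 arrays. The part of any of these in the Sptbn4 difference was not tested. The call was lost without natural Treg array 3 (1.04, adjusted p = 0.0697) and without natural Foxp3-delta array 2 (1.01, adjusted p = 0.409).

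Clustering on 3 technical measures (the ratio of the spiked cre to bioB control signals, and the median and the bright end of the deposited intensities) split the 31 arrays into sets of 15, 8 and 8. The sets come from the data, not from the labels. The 4 natural Treg arrays were all in the first, and the natural Foxp3-delta arrays lay 1 in each of the others, so label and array set cannot be told apart in this comparison. With the set as a block, the Sptbn4 difference was 1.103 with adjusted p = 0.329, and the calls over all probe sets went from 22 to 0.

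Sptbn4 read lower in activated natural Treg than in natural Treg, which by their labels differ in the antibodies and TGF-beta. The same natural Treg arrays enter this call and the one against natural Foxp3-delta, so these calls are not independent. The difference was -0.72 (log2, SE 0.16, 95% interval -1.04 to -0.40, adjusted p = 0.0044, limma), from a mean of 819 to 491. Leaving out any 1 array kept it between -0.86 and -0.65 with adjusted p from 0.00494 to 0.0246. This was 1 of the 2 member probe sets called of 23, against 15.6% of all. Members with no overlap numbered 3 of 23, against 29.1% of all.

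The other call was Nfasc 1459357_at, which read 256, 195 and 164 on the activated natural Treg arrays and 159, 133, 143 and 142 on the natural Treg arrays. The groups did not overlap, but the lowest activated array lay close to the highest natural Treg array. The difference was 0.44 (log2, SE 0.13, 95% interval 0.18 to 0.71, adjusted p = 0.0232, limma). It was 0.28 (adjusted p = 0.179) without activated natural Treg array 1 and 0.41 (adjusted p = 0.0599) without natural Treg array 2. On the deposited scale it turned to -0.22, and fitted on the compared groups alone it was not called (adjusted p = 0.0534). The other Nfasc probe sets, 1436205_at and 1456068_at, differed by 0.16 (SE 0.14, adjusted p = 0.471) and 0.21 (SE 0.16, adjusted p = 0.393), neither called, and the groups overlapped in both.

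The 3 activated natural Treg arrays were all in the third array set and the natural Treg arrays in the first, so here too label and set cannot be told apart. With the set as a block, the differences were -0.63 for Sptbn4 (adjusted p = 0.314) and 0.48 for Nfasc 1459357_at (adjusted p = 0.329), and the calls over all probe sets went from 3841 to 6. The ratio of the 3′ to the 5′ actin probe set, a measure of RNA integrity, was 2.05 to 2.13 on the activated arrays and 1.73 to 1.84 on the natural Treg arrays. The 15 T cell markers summed to 437 to 476 in normalised intensity on the activated arrays and to 413 to 425 on the natural Treg arrays, again with no overlap. This sum leans on Zap70 and Ptprc (deposited means of 119 and 97.6), and 13 of the 15 markers lay below the 50th percentile. The sums of the neuron, oligodendrocyte, Schwann cell, astrocyte, microglia and endothelium markers all overlapped between these groups. The part of the actin ratio or of the T cell sum in these calls was not tested.

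**Figure D2:**
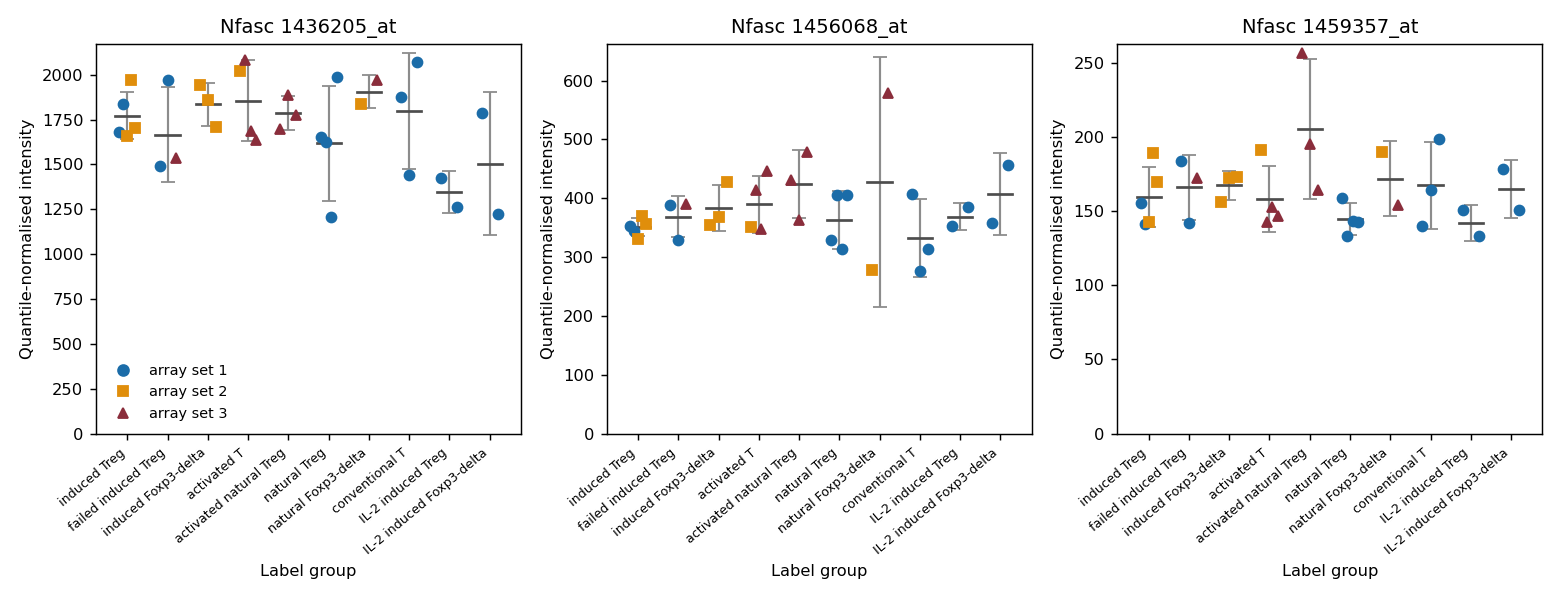
Quantile-normalised intensity of the 3 Nfasc probe sets on each of the 31 arrays (points), by label group, with the group mean (line) and SD (bar); symbols mark the 3 array sets. Probe set 1459357_at reaches 256 on an activated natural Treg array, while the other Nfasc probe sets have no called difference.

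Sptbn4 read higher in natural Treg than in conventional T, which by their labels are reporter-positive and reporter-negative cells, by 0.65 (log2, SE 0.16, 95% interval 0.33 to 0.97). The unadjusted p was 0.000293 and the adjusted p 0.561, so it was not called (limma). Both groups lay in the first array set, and their arrays did not overlap. Of 23 member probe sets 0 were called and 2 did not overlap, against 0.00405% and 6.38% of all probe sets. The second was Cntn1 1459197_at, at means of 847 and 671. Over all members 2 had an unadjusted p under 0.05, against 2.53% of all probe sets.

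The arrays labelled natural Foxp3-delta read lower than conventional T for Sptbn4 by a log2 difference of -0.42 (adjusted p = 0.294), not called. In that comparison 0 of 23 members were called, against 0.15% of all, with 2 at an unadjusted p under 0.05 against 14.9% of all, and 6 did not overlap, against 37.4%. These groups share no array set either. The IL-2 arrays as a whole differed from the arrays of cells not activated by -0.47 in Sptbn4 (SE 0.12, adjusted p = 0.0708), and 0 of 23 members were called, against 0.713% of all. Of the members, 0 did not overlap there, against 1.88% of all. Without conventional T array 2 this difference was -0.54 with adjusted p = 0.0281. The natural Foxp3-delta mean, 379, lay between those of IL-2 induced Treg (347) and IL-2 induced Foxp3-delta (434), while conventional T (520) and natural Treg (819) lay above. The allele difference of Sptbn4 in the induced labels minus that in the natural labels was -1.19 (SE 0.23, adjusted p = 0.326), with 0 probe sets of the whole table called and 4.59% at an unadjusted p under 0.05. Log2 means were 8.74 and 8.85 for induced Treg and induced Foxp3-delta, and 9.70 and 8.62 for natural Treg and natural Foxp3-delta. Natural Treg and natural Foxp3-delta share no array set, so label and set cannot be told apart here either. These comparisons share arrays with each other.

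The remaining comparisons called 0 members, and the member with the smallest p is given for each. For activated T against conventional T, 6.17% of all probe sets were called, and 4 of 23 members did not overlap, against 21.9% of all. Ank3 1447259_at read 81.8, 98.6, 91.9 and 89.0 on the activated T arrays and 79.9, 79.8 and 59.2 on the conventional T arrays. The groups did not overlap, and the difference was 0.26 (SE 0.09, adjusted p = 0.0835). On the deposited scale it was -0.25, and without conventional T array 3 it was 0.15. These groups share no array set, so label and set cannot be told apart. For activated natural Treg against activated T (0.799% of all called, and 2 of 23 members without overlap against 7.63%), Nfasc 1459357_at differed by 0.33 (SE 0.13, adjusted p = 0.236), and an activated T array at 191 lay within the other group's range. Within the third array set the difference was 0.42 (adjusted p = 0.770), and without activated natural Treg array 1 it was 0.17.

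For induced Treg against activated T (0.0568% of all called, and 0 of 23 members without overlap against 1.95%), Epb41l3 1419062_at read 5753 to 7418 on the induced Treg arrays and 4604, 5080, 5644 and 5753 on the activated T arrays. The groups met at 5753, and the difference was 0.29 (SE 0.10, adjusted p = 0.332). Within the second array set, which held only 1 activated T array, it was 0.057. Epb41l3 1440595_at differed by 0.17 between induced and failed induced Treg (SE 0.09, adjusted p = 1.00), where limma called 0% of all probe sets, 4.48% had an unadjusted p under 0.05, and 0 members did. Within the first array set that difference was 0.033. Members without overlap numbered 0, against 2.74% of all. Cntnap2 1422798_at differed by 0.27 between induced Treg and induced Foxp3-delta (SE 0.13, adjusted p = 1.00), where 0% were called by limma, 3.04% had an unadjusted p under 0.05, and 0 members did. Within the second array set it was 0.28. There too 0 members did not overlap, against 2.05% of all.

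Between the IL-2 and the earlier labels, Epb41l3 1426010_a_at read 2747 and 2469 on the IL-2 induced Treg arrays and 2720, 3548, 3570, 3597 and 3649 on the induced Treg arrays. The lowest induced Treg array fell between the IL-2 arrays, and the difference was -0.38 (SE 0.14, adjusted p = 0.164), with 1.79% of all called and 3 of 23 members without overlap, against 23.8%. Within the first array set it was -0.25. Cntn1 1452981_at read 3931 and 3673 on the IL-2 induced Foxp3-delta arrays and 3415, 3551 and 2829 on the induced Foxp3-delta arrays. Those groups did not overlap, and the difference was 0.22 (SE 0.11, adjusted p = 0.299), with 0.332% of all called and 6 of 23 members without overlap, against 38.1%. Without induced Foxp3-delta array 3 it was 0.13, and since these groups share no array set, label and set cannot be told apart. Between the IL-2 groups themselves, Epb41l3 1426010_a_at differed by -0.40 (SE 0.17, adjusted p = 1; -0.25 without IL-2 induced Foxp3-delta array 1) with 0% of all called, 2.74% at an unadjusted p under 0.05, and 2 members at that level. There 10 of 23 members did not overlap, against 34.8% of all. The difference with IL-2 did not reach the threshold between alleles for any member, and Ank3 1447259_at came first at 0.28 (SE 0.15, adjusted p = 1.00), with 0 probe sets called and 2.7% of all at an unadjusted p under 0.05.

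**Figure D3:**
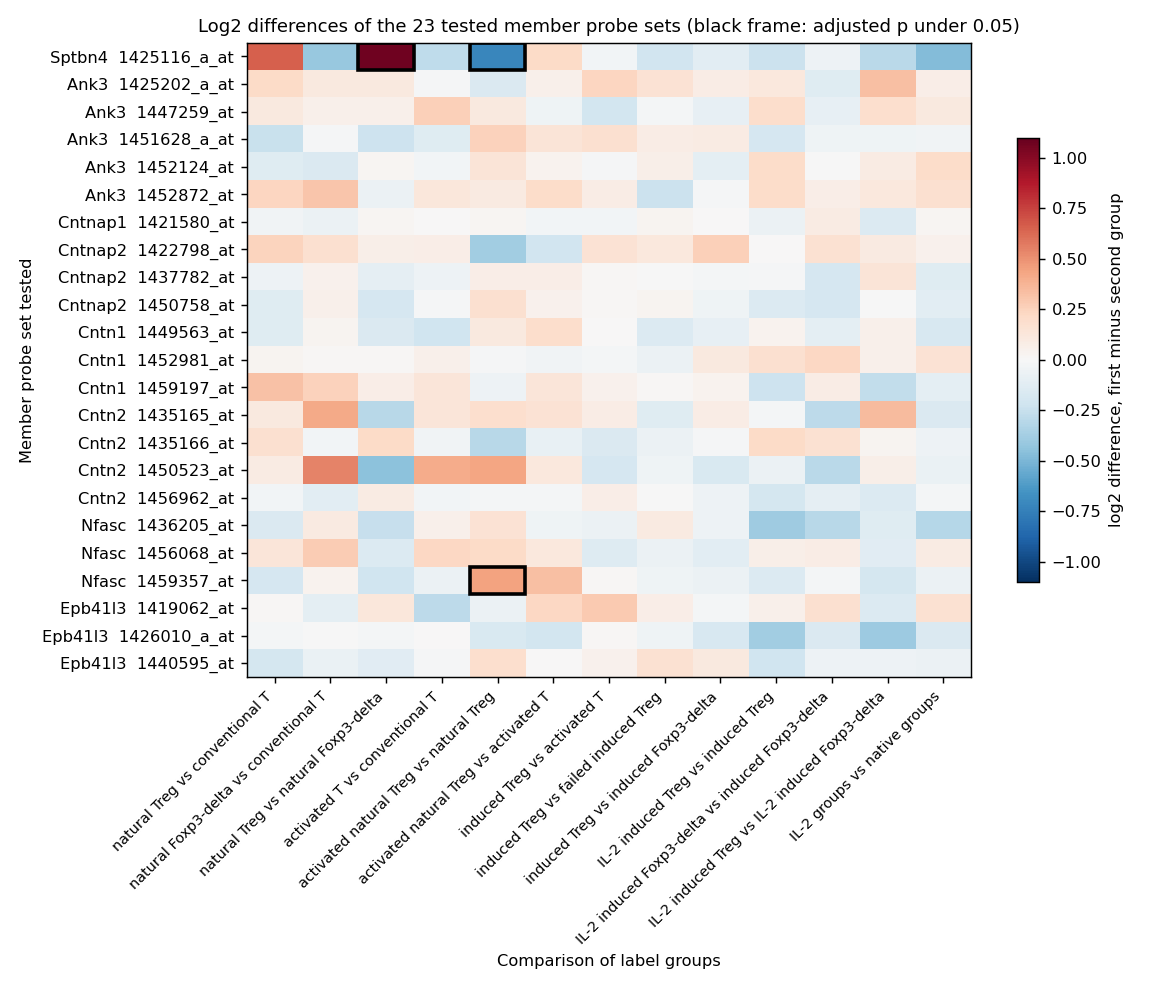
Log2 differences of the 23 tested member probe sets in the 13 comparisons (colour scale), with the 3 called cells marked. Sptbn4 carries the called differences of 1.07 and -0.72, which share the natural Treg arrays, and Nfasc 1459357_at that of 0.44.

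Over the 13 comparisons, 3 of 299 member tests were called, or 1%, against 1.97% of all tests over the same comparisons, and 11 comparisons held none. The members' median log2 difference in these 13 lay between -0.05 and 0.10, beside medians of all probe sets close to 0.

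Brightness on an array depends on the probes, so it is not compared between genes. Of the 24 probe sets, 11 had a mean percentile above 90, 5 lay between 75 and 90, 6 between 50 and 75, and 2 below 50. All 24 lay above 25.0 on every array, the 95th percentile point of the 27 bacterial control probe sets, whose median was 5.93.

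The initial segment's adaptor, Ank3, had 5 tested probe sets, of which 1452124_at was the brightest, at 4330 ± 838 in normalised intensity (SD, n = 31) and a mean percentile of 98.7. Its group means ran from 3911 on natural Foxp3-delta to 4878 on IL-2 induced Treg arrays, and the label groups took 8.75% of its variance. The others ran from 883.9 ± 122 for 1452872_at to 2289 ± 259 for 1425202_a_at, except 1447259_at at 80.8 ± 8.81. The untested 1457288_at read 32.8 ± 3.47.

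Of the paranodal pair, Cntn1, the contactin of the axonal junction, read 3547 ± 287 for 1452981_at, 2852 ± 353 for 1449563_at and 769 ± 141 for 1459197_at (SD, n = 31). Its 1452981_at group means ran from 3265 on induced Foxp3-delta to 3968 on IL-2 induced Treg arrays. Cntnap1, the Caspr gene that partners it, had 1 probe set, 1421580_at, at 48.4 ± 4.01 and a percentile of 53.2, with group means of 45.6 to 52.4 and the smallest spread of group means among the tested members (0.15 on the log2 scale).

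Of the juxtaparanodal pair, Cntnap2 encodes Caspr2, and its 1437782_at read 593 ± 50.7, 1422798_at 542 ± 78.7 and 1450758_at 54.3 ± 7.90 (SD, n = 31). The group means of 1437782_at ran from 526 on IL-2 induced Foxp3-delta to 630 on natural Foxp3-delta arrays. Cntn2, the TAG-1 gene, read 718 ± 125 for 1435165_at, 274 ± 41.4 for 1435166_at, 73.1 ± 8.47 for 1456962_at, and 1450523_at read 33.3 with a range of 21.6 to 61.9. The group means of 1435165_at ran from 564 on IL-2 induced Foxp3-delta to 844 on natural Foxp3-delta arrays, and the adjusted p over the 10 groups was 0.437.

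Array set, rather than label, took the larger share of Cntn2 1450523_at: 52.0% of its variance lay between the 3 array sets and 29.8% between the 10 label groups. Epb41l3 1419062_at came next by array set, at 37.8%, against a median of 22.3% over all probe sets tested, though labels took 47.5% of its variance. Array set also took more than label in Cntnap2 1450758_at (31.7% against 20.4%) and Nfasc 1456068_at (26.8% against 20.8%). The share of array set in Sptbn4 was 9.84%.

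Nfasc, the adhesion molecule of node and paranode, read 1727 ± 242 for 1436205_at, 378 ± 61.1 for 1456068_at and 164 ± 25.7 for 1459357_at (SD, n = 31). Epb41l3, the 4.1B linker, read 6293 ± 746 for 1419062_at, 3351 ± 447 for 1426010_a_at and 121 ± 12.2 for 1440595_at. Its 1419062_at group means ran from 5270 on activated T to 7395 on IL-2 induced Foxp3-delta arrays, whose 2 arrays lay above every array of the next group in order, IL-2 induced Treg.

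**Figure D4:**
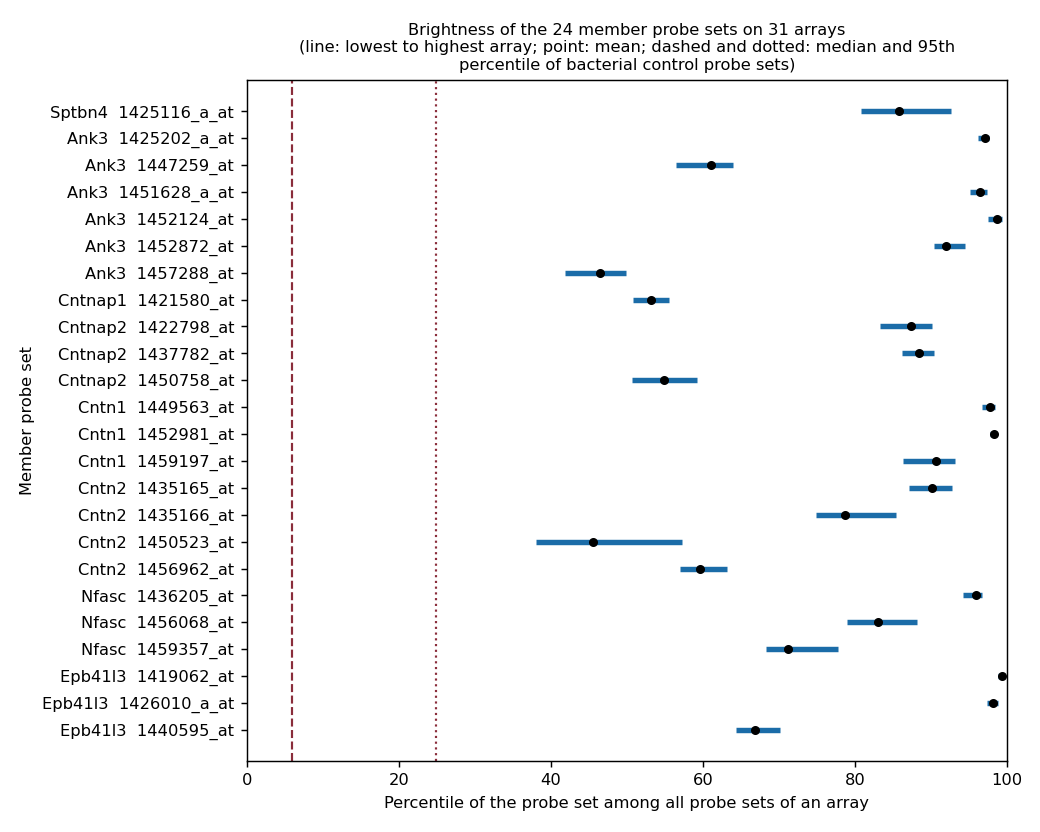
Percentile within the array of the 24 member probe sets, with the range over the 31 arrays, beside the bacterial control probe sets. Mean percentiles run from 45.6 to 99.4, and the controls have a median of 5.93.

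In the orderings of the 10 groups, 207 pairs of neighbouring means over the 23 tested probe sets gave 5 without overlap between arrays (2.42%), against 2.69% over all probe sets tested. These lay in Sptbn4, Ank3 1452872_at, Cntnap2 1437782_at, Cntn2 1456962_at and Epb41l3 1419062_at.

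Correlations between member probe sets were low in the median, also within the same gene, so they cannot show whether the genes move together. Probe sets of the same gene had a median Pearson correlation of -0.06 over the 31 arrays (28 pairs, -0.34 to 0.33), and those of different genes one of -0.02 (225 pairs, -0.54 to 0.62). The 3 pairs above 0.5 all joined different genes, the highest being Cntnap2 1450758_at with Epb41l3 1440595_at at 0.62. These values are descriptions of arrays that share a normalisation.

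The genes whose pattern over the 31 arrays was most like that of Sptbn4 were Prep (r = 0.64), Snx30 (0.63) and Fancg (0.62), among 21547 probe sets. Each value in this paragraph is among the highest picked from that many. How high such a value runs between unrelated genes was not tested. Those of Nfasc 1436205_at were Sec11c (0.77), Nfia (0.75) and Ctnnd1 (0.70), and those of Epb41l3 1419062_at were Bcor (0.76), Rnf185 (0.74) and Kmt5b (0.73). For Ank3 1452124_at they were Dgki (0.71), Itga9 (0.65) and Adamts10 (0.62), and for Cntn2 1435165_at Gigyf2 (0.70), Cdadc1 (0.68) and Vps35l (0.67). Those of Cntn1 1452981_at were Syne1 (0.66), Rilp (0.65) and Gm2137 (0.64), those of Cntnap1 were Syt16 (0.62), Hpca (0.60) and Cdh7 (0.59), and those of Cntnap2 1437782_at were 2310067E19Rik, Eif5a2 and Topors (each 0.55).

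The partners of the scaffold were read from lists of ion channels, adhesion partners, cytoplasmic scaffold partners, node matrix and paralogs of the members, 63 genes tested at 1 probe set each. Their median percentiles were 94.5, 92.6, 94.6, 83.2 and 64.05, in that order, and 2 of the 6 paralogs on the array lay below the 50th percentile. In activated natural Treg against natural Treg, 6 of the 63 were called, 5 higher and 1 lower, against the 15.6% of all probe sets. These were Kcnab2, a potassium channel beta subunit (0.37), Dag1, dystroglycan (0.23), Csnk2a1, a casein kinase 2 subunit (0.40), Fgf13, which binds sodium channels (0.42), Cntnap5a, a Caspr relative (0.57), and Dlg4, the scaffold PSD-95 (-0.90), all log2 differences.

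In activated T against conventional T, 6 of 63 were called, 4 higher and 2 lower, against 6.17% of all. Fgf13 (0.47), Dag1 (0.36), Csnk2a1 (0.34) and the matrix gene Acan (0.56) were higher, and Dlg4 (-0.68) and the adhesion molecule L1cam (-0.43) were lower. The 7 astrocyte markers summed to 39883 to 43947 in normalised intensity on the activated T arrays and to 34791 to 38766 on the conventional T arrays. The T cell markers summed to 433 to 482 and 414 to 426, and the Gapdh ratio was 0.854 to 0.986 and 0.999 to 1.027, in the same order. None of these ranges overlapped, while the sums of the neuron, oligodendrocyte, Schwann cell, microglia and endothelium markers did. The T cell sum again leans on Zap70 and Ptprc. The part of any of these in the calls was not tested. In IL-2 induced Treg against induced Treg 3 of 63 were called, 1 higher and 2 lower, against 1.79% of all. They were the sodium channel gene Scn3a (0.39), Lgi1, a secreted ligand of ADAM22 (-0.57), and Hapln4, a matrix link protein (-0.57). Their adjusted p ran from 0.0439 to 0.0462 (limma). The 2 IL-2 induced Treg arrays were in the first array set, and the 5 induced Treg arrays lay 2 in the first and 3 in the second. Calls over all probe sets numbered 441, and 177 with the set as a block. With only the compared groups fitted there were 22, and within the first set 459. The first pair of comparisons each set groups that share no array set, and with the set as a block the calls over all probe sets went from 3841 to 6 and from 1522 to 14. The other 10 comparisons called 0 of the 63 partners.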

How the data were processed

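Biotin-labelled total RNA from 31 samples was hybridised to 1 Affymetrix mouse array each. The authors deposited 1 intensity per probe set and array on a linear scale, and how probe intensities were summarised, background-corrected or scaled is not given in the sources used. Of the probe sets, 34958 were annotated to 1 symbol, 932 to several and 9211 to none listed, and 64 Affymetrix controls were left out of the tests. The column of each sample was matched by its label, and 0 columns were unused.

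Values were quantile-normalised across the 31 arrays and taken as log2(intensity + 16). A probe set was tested if its normalised intensity exceeded the table's median of 39.8 on at least 2 arrays, which left 24669. A model with 1 mean per label group was fitted by the lmFit and eBayes functions of limma 3.58.1 (R 4.3.3), with 13 comparisons and 2 differences between comparisons, and p-values were adjusted by Benjamini-Hochberg over all probe sets tested, at a threshold of 0.05. Fits were tested on simulated data. Array sets came from Ward clustering, with 3 clusters, on the cre to bioB ratio and the deposited median and upper intensities. The number of arrays, 2 to 5 per group, limits the precision.

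All member genes are named, and in each comparison every called probe set, or otherwise the one with the smallest p. Called partner genes are named too, up to 3 per list, and the 3 most similar genes per member. Members, lists and comparisons were chosen with earlier results of these data known. Samples with the same replicate number were not treated as paired, since the labels do not say that a number marks a shared culture and no comparison had every pair above 0.1: of 44 pairs, 3 correlated above 0.1 in their deviations from the group means (range -0.22 to 0.32). The windows before annotated starts came from RefSeq, GRCm38.p6. Alternatives were the deposited scale, array medians, other pseudocounts, no filter, 1 value per gene, array set or replicate as a block, only the groups compared, and leaving out each array.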

Additional observations from a re-analysis of the deposited data

Results flagged for a closer look

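In 72 group checks of the members (groups of 4 or 5 arrays), 6 had an array far from the others of its group, where chance gives about 1 in 20. The gap to the nearest other array is given as a share of the group's whole range, both on the log2(intensity + 16) scale, while the values named are normalised intensities. Ank3 1451628_a_at read 1432 on activated T array 3, below the other arrays of the group at 1997 to 2064 (share 0.910). Cntn1 1449563_at read 2308 on activated T array 4, against 2751 to 2803 (0.903). Cntnap2 1437782_at read 549 on the same array, against 593 to 601 (0.853). Cntn2 1456962_at read 91.8 on natural Treg array 4, against 64.1 to 66.9 (0.884). Epb41l3 1440595_at read 122 on that array, against 103 to 106 (0.862). Epb41l3 1426010_a_at read 2720 on induced Treg array 1, against 3549 to 3649 (0.905).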

How the results depend on the processing

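Of 609 recomputed values, 570 kept their direction and their side of the threshold, or, for counts, stayed within 1.5 times. On the deposited scale, without quantile normalisation, the median of all probe sets shifted by -0.53 in activated natural Treg against natural Treg, -0.39 in activated T against conventional T and 0.45 in induced Treg against activated T, and by less in the others. All probe sets called in activated natural Treg against natural Treg were then 78 higher and 16067 lower, against 1906 and 1935 after quantile normalisation. On the deposited scale 9 member probe sets differed among label groups, a test for which calls over all probe sets were counted only in the main fit. Activated natural Treg against natural Treg held 7 members, against 16145 of all 25683 probe sets tested. Induced Treg against activated T held 12, against 16079 of all, and natural Treg against natural Foxp3-delta 0, against 0 of all. With arrays scaled to their medians, 8 members were called among groups. Activated natural Treg against natural Treg held 8, against 5099 of all 24669 probe sets tested. Natural Treg against natural Foxp3-delta held 3, against 1901 of all, and activated T against conventional T held 5, against 6610. IL-2 induced Treg against induced Treg held 1, against 805. The median of all probe sets shifted by 0.12 in activated T against conventional T. All calls were then 5938 higher and 672 lower there, against 733 and 789, and 133 and 1768 in natural Treg against natural Foxp3-delta, against 13 and 9. Blocking on the array set gave counts of 0 in natural Treg against natural Foxp3-delta and 0 in activated natural Treg against natural Treg. Over all probe sets the calls were then 0 and 6. With the brightest probe set per gene, activated natural Treg against natural Treg held 1, against 2027 of all 12169 genes tested.

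Differences that turned direction were those of Ank3 1447259_at in activated T against conventional T (-0.25 as deposited, -0.030 with the brightest probe set), Nfasc 1459357_at in activated natural Treg against natural Treg (-0.22 as deposited) and against activated T (-0.047 with the brightest probe set), Cntnap2 in induced Treg against induced Foxp3-delta (-0.021, brightest probe set), Epb41l3 in IL-2 induced Treg against induced Treg (0.055, brightest probe set) and Cntn1 1452981_at in IL-2 induced Foxp3-delta against induced Foxp3-delta (-0.37 as deposited, -0.30 at array medians). The brightest probe set is another probe set of the same gene; for the scales the cause was not tested. Sptbn4 kept its direction in every alternative of its 2 called comparisons. As deposited its difference between natural Treg and natural Foxp3-delta was 0.92 with adjusted p = 0.520.

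By the rule used, replicate numbers were not taken to pair samples. The pairs above 0.1 were induced with failed induced Treg for numbers 1 (0.31) and 2 (0.32), which come from the same cultures per the labels, with number 3 at 0.041, and induced Treg with activated T for number 1 (0.11). With the replicate block, Sptbn4 differed by 1.02 (adjusted p = 0.00833) and -0.67 (adjusted p = 0.00697) in its 2 called comparisons, and Nfasc by 0.46 (adjusted p = 0.0157). Activated T against conventional T then held 1 member, Ank3 1447259_at, at 0.29 (adjusted p = 0.0439), against 1413 of all 24669 probe sets. The block moved the calls over all probe sets in natural Treg against natural Foxp3-delta from 22 to 831. With only the compared groups fitted, Nfasc 1459357_at had adjusted p = 0.0534.

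Leaving out each array gave 0 to 1 called members in natural Treg against natural Foxp3-delta, 0 to 1 in natural Foxp3-delta against conventional T, 1 to 3 in activated natural Treg against natural Treg and 0 to 1 in the IL-2 arrays against cells not activated. Where 1 array of a pair was left, it was assumed to vary like the other groups.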
